A study of Mus musculus with 51 samples.

Results

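Gene expression in the pyramidal layer of CA3 was compared between rTg4510 mice and double-negative (DN) littermates, using 12 of the 51 arrays of the series. The arrays were taken by their labels, 6 CA3 arrays labelled rTg4510 and 6 CA3 arrays labelled DN, each from a different mouse labelled female at 4.5 months of age, and every probe set except the control probe sets entered the comparison. The rTg4510 mice carry a transgene for mutant human tau under a tetracycline-responsive element (TRE) and the tetracycline-controlled transactivator (tTA) that switches it on. The DN mice carry neither transgene. A further group of 5 tTA mice, which carry the transactivator without tau, shared the fit and set the spread together with both groups compared. The CaMKIIα promoter drives tTA, so that tau is made in excitatory forebrain neurons, and because the rTg4510 mice differ from the DN mice by both transgenes, tau and tTA cannot be told apart in this comparison. All mice were littermates from a cross of a tau line with a tTA line kept on different inbred backgrounds. Each array holds RNA that was laser-captured from one layer and amplified, and the values are log2 signals after RMA (background correction, normalization and a summary for each probe set).

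CA3 pyramidal neurons receive mossy fiber input from the dentate gyrus (DG), excite each other through recurrent collaterals, and project to CA1. Tau is a microtubule-binding protein of axons that becomes hyperphosphorylated and aggregates in tauopathies, and the rTg4510 line develops tangles and neuron loss in the hippocampus, with activated astrocytes and microglia around the affected neurons. Captured pyramidal layers also hold the processes and bodies of glia, vessels and interneurons, and in such bulk samples fewer cells of a type and less RNA per cell cannot be told apart.

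The CA3 label was checked against subfield markers. The mean log2 signal over 4 measured CA3 markers (Prkcd, Bok, Synpr and Nnat) lay between 7.05 and 7.94 on the 17 CA3 arrays, between 3.47 and 7.31 on the CA1 arrays and between 4.89 and 7.19 on the DG arrays, so that the highest arrays of the other layers reached into the CA3 range. Over 4 CA1 markers the CA3 arrays (3.15 to 4.21) lay below all CA1 (4.51 to 8.57) and DG arrays (4.75 to 7.02). Over 5 DG markers the CA3 arrays (2.18 to 3.85) lay below all DG arrays (5.51 to 7.74). The CA1 arrays, at 2.08 to 4.58, overlapped with CA3 for these DG markers. One array stood apart. DN mouse 4 had a Prnp signal within the rTg4510 range in CA3, and also in CA1, where its 10.44 lay inside the rTg4510 range of 9.96 to 10.55 and above the 6.57 to 8.76 of the other 5 DN mice. In the DG Prnp did not separate the labels, with 7.34 to 10.26 in rTg4510 mice, 9.98 in DN mouse 4 and 7.46 to 9.93 in the other DN mice. In CA3 DN mouse 4 also had the lowest Prkcd signal among DN arrays (4.67, against 6.42 to 7.21), the highest mean of the DG marker list (3.62, against 2.65 to 3.02) and the widest gap between the 3′ and 5′ Gapdh control probe sets (3.17, against 2.21 to 2.64). The tTA arrays of CA3 reached 3.72 on the DG marker list. DN mouse 5 had an Xist signal of 4.06, against 8.23 to 9.26 on the other DN arrays, while the Y-linked Eif2s3y reached at most 1.76 on any DN array. Results are therefore given with all 12 arrays and, where the call or the size changes, also without DN mouse 4.

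With all 12 arrays, 0 of 22626 probe sets (0%) passed an adjusted p of 0.05 in limma, and the smallest adjusted p was 0.38. At an unadjusted p under 0.05 there were 892 probe sets (3.94%), 448 of them higher and 444 lower in rTg4510 mice. Among all probe sets, 21 had every rTg4510 array above every DN array (0.0928%), and 25 had every rTg4510 array below every DN array (0.110%). For probe sets named below because of a small p, such separation of the groups adds no support. The typical standard error of a difference was 0.25 on the log2 scale (median over probe sets), and 326 probe sets differed by more than 1 on that scale. Without DN mouse 4, 4 probe sets passed (0.0177%), both probe sets of Prnp higher and 1 each of Nfkbie and Nacc1 lower, and 797 had an unadjusted p under 0.05 (3.52%).

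Prnp encodes the cellular prion protein, and the tau transgene of this line is known to sit in a vector with mouse prion gene sequence, so that its signal serves as a check of the labels. The dimmer of its 2 probe sets had log2 signals of 9.59 (lowest), 9.77 (median) and 10.07 (highest) in rTg4510 mice, and of 7.89, 8.15 and 9.65 in DN mice. The highest DN array was DN mouse 4, and the other DN arrays ended at 8.55, below every rTg4510 array. The difference was 1.37 ± 0.26 on the log2 scale (SE, n = 6 each), a ratio of 2.59, with an adjusted p of 0.404 in limma. The brighter probe set had 10.18, 10.31 and 10.56 in rTg4510 mice and 9.39, 9.48 and 10.29 in DN mice, and again the highest DN value belonged to DN mouse 4. Its difference was 0.75 ± 0.15 with an adjusted p of 0.543. Without DN mouse 4 the differences were 1.62 ± 0.18 for the dimmer and 0.88 ± 0.11 for the brighter probe set. The call of the brighter was lost when DN mouse 5 was also left out, or when only the rTg4510 and DN arrays were fitted. Since the Prnp signal itself singled out that array, these last values are a description. In tTA mice, which have no tau transgene, the dimmer probe set averaged 7.81 ± 0.43 (SD, n = 5).

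**Figure D1:**
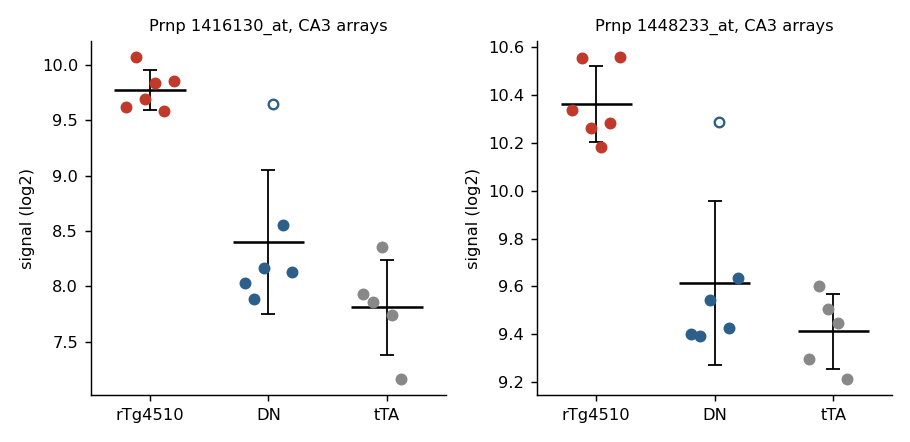
Log2 signal of both Prnp probe sets on each CA3 array, by genotype, with 1 point per mouse, the mean as a line and the SD as a bar; the open point is DN mouse 4. Its values of 9.65 and 10.29 lie within the rTg4510 points, and the other 5 DN mice lie below all of them.

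Nfkbie, which encodes IκBε, an inhibitor that holds NF-κB in the cytoplasm, had log2 signals of 1.50, 2.37 and 2.88 (lowest, median and highest) in rTg4510 mice and of 2.62, 4.06 and 4.87 in DN mice. All rTg4510 arrays were dimmer for it than the typical probe set (a median of 2.98 over the CA3 arrays), and only DN mouse 4 among the DN arrays overlapped with them. The difference was −1.70 ± 0.32 with all 12 arrays (adjusted p = 0.404, limma). Without DN mouse 4, Nfkbie fell by 1.97 ± 0.26 (adjusted p = 0.0130, limma, n = 6 and 5), a ratio of 0.256. That call was lost when DN mouse 5 or DN mouse 6 was also left out, where the adjusted p reached 0.0753. It was also lost without DN mouse 4 when only the rTg4510 and DN arrays were fitted. The tTA mice averaged 2.17 ± 0.23 (SD, n = 5), and the tTA minus DN difference, which rests on the same DN arrays, was −1.80 ± 0.34 (adjusted p = 0.304). Leaving out DN mouse 4 gave −2.07 ± 0.28, which passed (adjusted p = 0.0357), so that Nfkbie was lower in both transgenic groups against the same 5 DN mice.

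Nacc1 encodes a BTB-domain transcriptional regulator. The probe set of smaller p had 2.61, 2.85 and 3.15 in rTg4510 mice and 3.41, 4.20 and 4.71 in DN mice, so that the groups did not overlap. Its rTg4510 mean of 2.83 was dimmer than the typical probe set (2.98). The difference was −1.23 ± 0.21 (adjusted p = 0.380, limma). Without DN mouse 4 it fell by 1.37 ± 0.19 (adjusted p = 0.0169, limma, n = 6 and 5), a call that was lost in 7 of the 11 fits that left out 1 more mouse (DN mouse 1, 5 or 6, or rTg4510 mouse 1, 3, 4 or 6), with an adjusted p of up to 0.0950. The call was also lost without DN mouse 4 when only the rTg4510 and DN arrays were fitted. The other probe set of the gene averaged 3.45 in rTg4510 mice and 3.55 in DN mice, a difference of −0.10 ± 0.14. In tTA mice the first of these averaged 2.99 ± 0.26 (SD, n = 5). Nipbl, the loader of cohesin onto chromosomes, also separated the groups, with 2.41, 2.85 and 3.15 in rTg4510 mice against 3.83, 4.50 and 4.99 in DN mice. Its difference of −1.67 ± 0.35 had an adjusted p of 0.663, and a fit of only the rTg4510 and DN arrays gave 0.0431. Without DN mouse 4, neither of these fits called Nipbl. The tTA mice averaged 2.90 ± 1.05 (SD, n = 5) for Nipbl. For this gene too the rTg4510 mean, 2.80, was dimmer than the typical probe set.

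**Figure D2:**
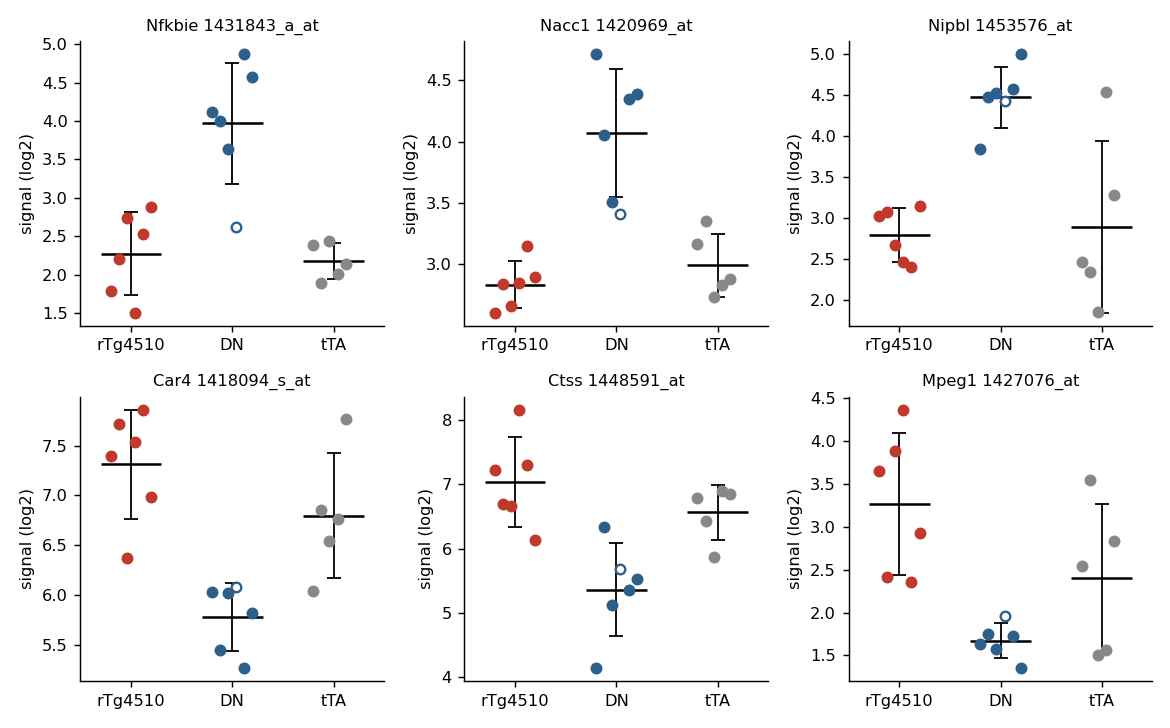
Log2 signal of Nfkbie, Nacc1, Nipbl, Car4, Ctss and Mpeg1 on each CA3 array, with 1 point per mouse, the mean as a line, the SD as a bar and DN mouse 4 as an open point. Nacc1, Nipbl, Car4 and Mpeg1 do not overlap between rTg4510 and DN mice, and the tTA mice are shown at the right.

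Car4 encodes a membrane-anchored carbonic anhydrase that buffers extracellular pH. The probe set of smaller p had 6.37, 7.47 and 7.86 in rTg4510 mice and 5.26, 5.92 and 6.08 in DN mice, with no overlap. The difference was 1.54 ± 0.28, a ratio of 2.90, with an adjusted p of 0.404 (limma). The second probe set averaged 8.18 in rTg4510 mice and 7.48 in DN mice, a difference of 0.71 ± 0.50. In CA1 of the same mice, the first passed the threshold as the 1 probe set called there (0.00442%), with a difference of 2.72 ± 0.37 (adjusted p = 0.0303). The CA3 difference minus the CA1 difference was −1.18 ± 0.41 and did not pass (adjusted p = 0.999). The tTA mice averaged 6.80 ± 0.63 (SD, n = 5) in CA3.

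The remaining probe sets among the 20 of smallest p that have a gene symbol did not pass with or without DN mouse 4. On the side of higher signal in rTg4510 mice were Ctss and Mpeg1, both described with the microglial genes below, Gm2a, the cofactor of lysosomal GM2 ganglioside breakdown (1.41 ± 0.34), Gtpbp2, which takes part in rescue of stalled ribosomes (0.88 ± 0.22), Ctla2a, an inhibitor of cathepsin-like proteases (0.73 ± 0.18), and Lpar1, a receptor for lysophosphatidic acid that is abundant in oligodendrocytes (0.50 ± 0.11). On the side of lower signal were Borcs7, a subunit of the BORC complex that moves lysosomes along axons (−1.45 ± 0.36), Slc30a3, the zinc transporter of glutamatergic vesicles (−1.32 ± 0.33), Rusc1 (−1.21 ± 0.29), the adhesion molecule Cdh11 (−0.97 ± 0.23), the Hippo pathway kinase Lats2 (−0.91 ± 0.20), the semaphorin and VEGF receptor Nrp1 (−0.82 ± 0.20), Ldb3 (−0.67 ± 0.15) and the BMP receptor Acvr1 (−0.64 ± 0.15). Slc30a3, which is strongly expressed in mossy fibers and CA3, had 4.50, 5.73 and 6.21 in rTg4510 mice and 5.88, 6.83 and 7.90 in DN mice, with 3 rTg4510 arrays below every DN array. For Ctla2a, Lpar1, Ldb3 and Acvr1 the means of both groups were dimmer than the typical probe set (2.98). Borcs7 and Rusc1 had no overlap, with rTg4510 arrays ending at 4.39 and 4.18 and DN arrays starting at 4.53 and 4.24. Other probe sets of the same genes often had differences nearer 0. They were 0.23 ± 0.17 for Gm2a, 0.28 and −0.22 for Gtpbp2, −0.03 and 0.04 for Ldb3, −0.02 and 0.33 for Lpar1, and −0.59 and −0.10 for Acvr1, and for Lats2 the other 4 lay between −0.002 and 0.51. For Nrp1 both others were on the lower side (−0.62 ± 0.36 and −0.89 ± 0.24), as were the 3 others of Rusc1 (−0.69 to −0.58), and for Ctla2a the other was 1.28 ± 0.70.

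**Figure D3:**
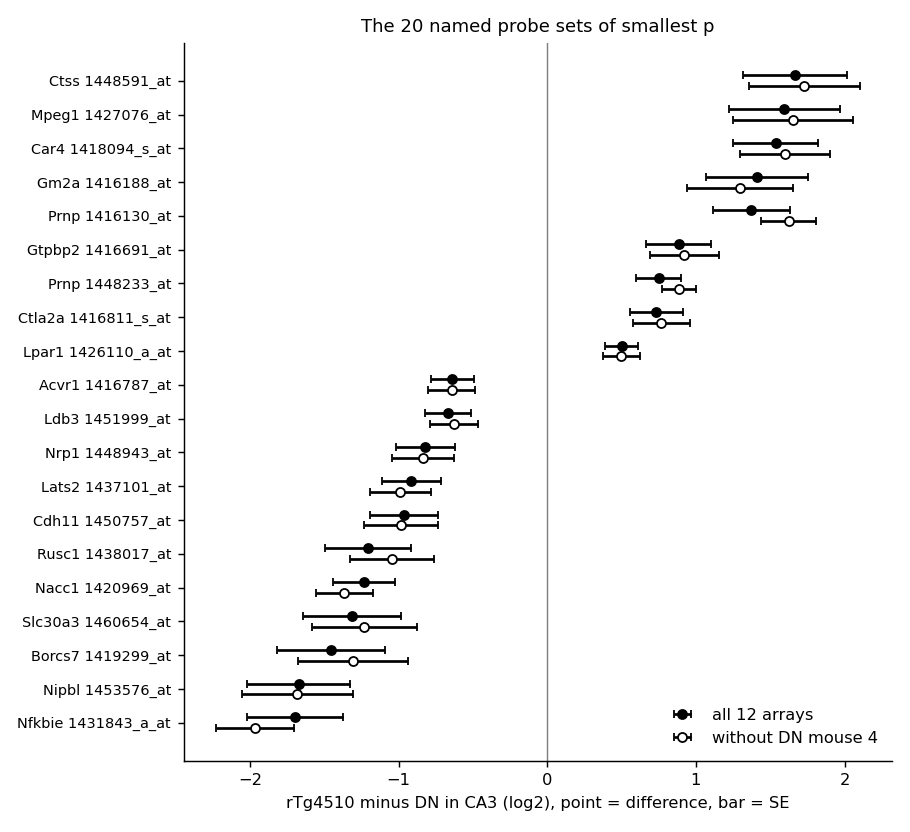
Difference of rTg4510 minus DN in CA3 on the log2 scale (point) with its SE (bar) for the 20 named probe sets of smallest p, with all 12 arrays (filled) and without DN mouse 4 (open). Leaving out that mouse moves the dimmer Prnp probe set to 1.62 and Nfkbie to −1.97, both farther from 0.

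Markers of astrocytes, oligodendrocytes, microglia and vessels lay mostly on the side of higher signal in rTg4510 mice, and 0 of them passed the threshold in limma. Markers of oligodendrocyte precursors did not (4 of 8 higher, median −0.01), nor did the list of cytokine and gliosis genes (21 of 47 higher, median −0.02). In these lists 5 of 8 and 36 of 47 genes were dimmer than the typical probe set, which limits what both can show. Each of 11954 named genes entered the lists with its brightest probe set, and over all of these the median difference was −0.01, 47.7% were higher and 52.3% lower, and 2.07% were higher and 2.08% lower at an unadjusted p under 0.05. Astrocyte markers had 23 of 26 higher with a median of 0.56 and 9 at an unadjusted p under 0.05, a count that was 3 without DN mouse 5, where 1.66% of all genes were higher at that p. Oligodendrocyte markers had 22 of 25 higher with a median of 0.51 (0.33 without DN mouse 5) and 4 at that p (1 without DN mouse 5). Vessel markers had 25 of 31 higher with a median of 0.32 and 5 at that p (3 without DN mouse 5). Microglia markers had 40 of 51 higher with a median of 0.17 (0.09 without rTg4510 mouse 4 and 0.25 without rTg4510 mouse 6) and 8 at that p, and 37 of the 51 were dimmer than the typical probe set, which limits what the list can show. Over the other alternatives of processing, given below, the microglia median lay between 0.15 and 0.48. Without DN mouse 4 the medians were 0.54, 0.34, 0.31 and 0.18, with 8, 1, 6 and 5 genes higher at an unadjusted p under 0.05, where the values over all genes were 49.6% higher, 1.83% higher at that p and 1.78% lower at that p. With all DN arrays, the tTA minus DN medians of the astrocyte, oligodendrocyte, vessel and microglia lists were 0.25, 0.07, 0.08 and 0.08. The rTg4510 minus tTA medians of these lists were 0.29, 0.51, 0.28 and 0.09.

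**Figure D4:**
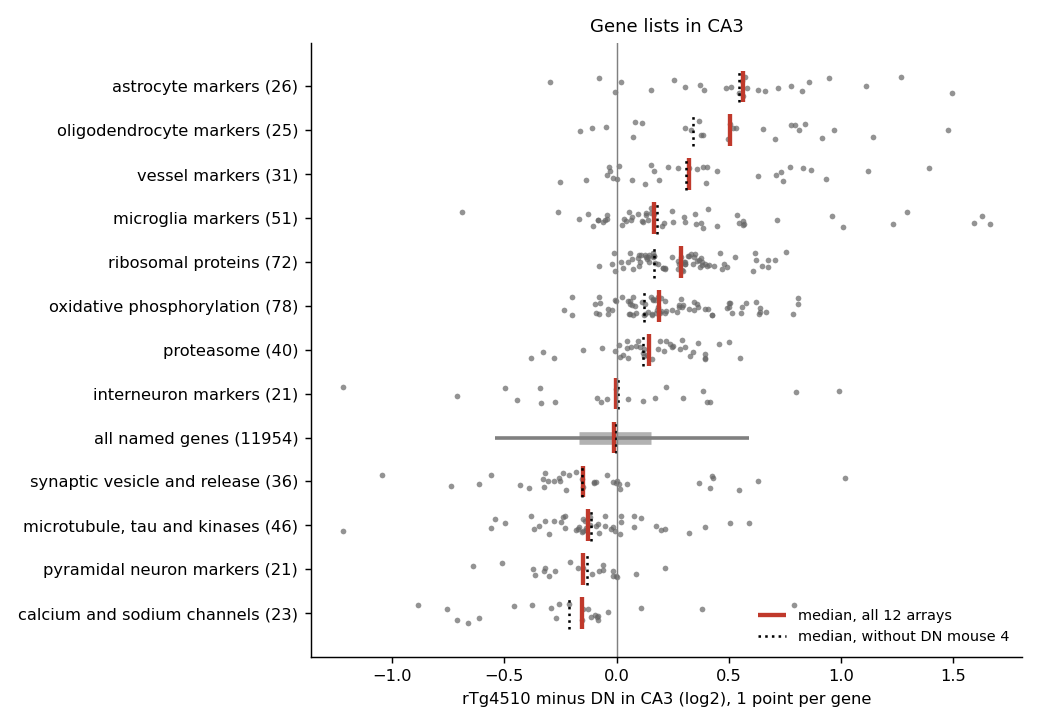
Difference of rTg4510 minus DN in CA3 on the log2 scale for each gene of 12 lists (1 point per gene, with the number of genes in brackets), the median of each list with all 12 arrays (solid line) and without DN mouse 4 (dotted line). The row of all 11954 named genes shows the quartiles from −0.17 to 0.15 as a thick bar and, with 5% of genes left out at either end, −0.54 to 0.59 as a thin one, both for single genes and not for medians of lists, and the medians of the astrocyte, oligodendrocyte, vessel and microglia lists lie at 0.56, 0.51, 0.32 and 0.17.

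The astrocyte genes of smallest p were Mlc1, a membrane protein of astrocyte endfeet, Aqp4, the water channel of the endfeet, Clu, the chaperone clusterin, and Pla2g7. Mlc1 had log2 signals of 4.44, 5.45 and 7.13 in rTg4510 mice and 3.21, 4.04 and 5.49 in DN mice, and Aqp4 had 6.01, 6.63 and 7.73 in rTg4510 mice and 4.94, 5.82 and 6.71 in DN mice, both with overlap. Their differences were 1.50 ± 0.47 and 0.95 ± 0.32 (adjusted p = 0.984 each, limma). Clu had 8.79, 9.43 and 9.64 in rTg4510 mice and 8.58, 8.69 and 9.32 in DN mice, a difference of 0.56 ± 0.21. Gfap, the intermediate filament of reactive astrocytes, had 5.14, 6.43 and 7.37 in rTg4510 mice and 3.78, 5.57 and 8.05 in DN mice. The highest value of the 12 arrays belonged to DN mouse 4, and the difference was 0.78 ± 0.62 with all 12 arrays, 1.26 without that mouse and 0.40 without DN mouse 1, the lowest array. The gap-junction protein Gja1 (0.49 ± 0.23) and the glutamate transporter Slc1a3 (0.55 ± 0.26) also lay on the higher side. Aldh1l1, another astrocyte marker, differed by 0.15 with all 12 arrays and by −0.24 without rTg4510 mouse 1.

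The microglia marker of smallest p was Ctss, the lysosomal protease cathepsin S, which had 6.13, 6.96 and 8.16 in rTg4510 mice and 4.15, 5.45 and 6.33 in DN mice. Only DN mouse 2 reached above the lowest rTg4510 array. The difference was 1.67 ± 0.35 (adjusted p = 0.672, limma). Mpeg1, a pore-forming protein of macrophages, had 2.35, 3.28 and 4.37 in rTg4510 mice and 1.35, 1.68 and 1.97 in DN mice, with no overlap and a difference of 1.59 ± 0.38 (adjusted p = 0.984). For this gene all DN arrays were dimmer than the typical probe set. Aif1, which encodes the microglial marker Iba1, differed by 1.30 ± 0.44 (4.13 in rTg4510 mice and 2.84 in DN mice), Tyrobp, the adaptor of TREM2, by 1.01 ± 0.42 and Selplg by 0.57 ± 0.18. The complement list had 10 of 19 higher and a median of 0.05, and 17 of the 19 were dimmer than the typical probe set. Over the other alternatives of processing that list had a median between 0.03 and 0.44. Its members of smallest p were C1qc, at 1.81, 2.84 and 5.16 in rTg4510 mice and 1.23, 1.64 and 2.19 in DN mice (1.48 ± 0.45), and C1qb, at 3.91, 6.51 and 7.09 in rTg4510 mice and 1.90, 4.33 and 5.96 in DN mice (1.84 ± 0.65), both overlapping. C1qa differed by 0.44 ± 0.32.

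Myelin and oligodendrocyte genes overlapped between the groups. Olig1, a transcription factor of the lineage, had 5.63, 6.53 and 6.67 in rTg4510 mice and 4.43, 5.54 and 6.41 in DN mice, a difference of 0.84 ± 0.27. Mbp, a structural protein of myelin, had 9.53, 10.14 and 10.52 in rTg4510 mice and 8.45, 9.46 and 10.32 in DN mice, a difference of 0.65 ± 0.30 that was 0.46 without DN mouse 4, the lowest DN array. Mobp, another myelin protein, differed by 1.14 ± 0.55. Among vessel genes, the efflux transporter Abcb1a differed by 0.93 ± 0.28, with 2.75, 3.41 and 4.34 in rTg4510 mice and 1.98, 2.67 and 2.88 in DN mice, and the matrix protein Sparc by 1.12 ± 0.40. The endothelial markers Slco1a4, Pecam1, Cldn5 and Flt1 differed by 0.71, 0.78, 0.36 and 0.07. The interferon-induced membrane protein Ifitm3, which vessels and glia express, had 5.01, 6.64 and 7.15 in rTg4510 mice and 2.92, 4.73 and 5.98 in DN mice (1.90 ± 0.67), and Ifit2 differed by 0.53 ± 0.17, while the list of interferon and MHC genes had a median of 0.05. Of the 43 interferon and MHC genes, 32 were dimmer than the typical probe set. The list of choroid plexus and ependymal markers averaged 2.17 to 2.71 in rTg4510 mice and 2.32 to 2.94 in DN mice, and the highest array was DN mouse 4. Ttr, the transthyretin of the choroid plexus, differed by −0.38 ± 0.39 with that mouse and 0.03 without it, while Folr1 reached at most 1.88 in rTg4510 mice and 1.95 in DN mice.

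The glial lists were high in the same mice. The mean log2 signal of the astrocyte list was 5.64, 5.94 and 6.69 (lowest, median and highest) in rTg4510 mice and 4.96, 5.60 and 6.23 in DN mice. rTg4510 mice 1 and 4 were the highest of all 12 for the astrocyte, oligodendrocyte, microglia and vessel lists, and DN mouse 2 was the highest DN array for each of them. DN mouse 2 also had the lowest mean of the pyramidal neuron list (7.86, against 8.42 to 8.50 on the other DN arrays). How far the share of glia in the captured tissue contributed to these differences was not tested.

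**Figure D5:**
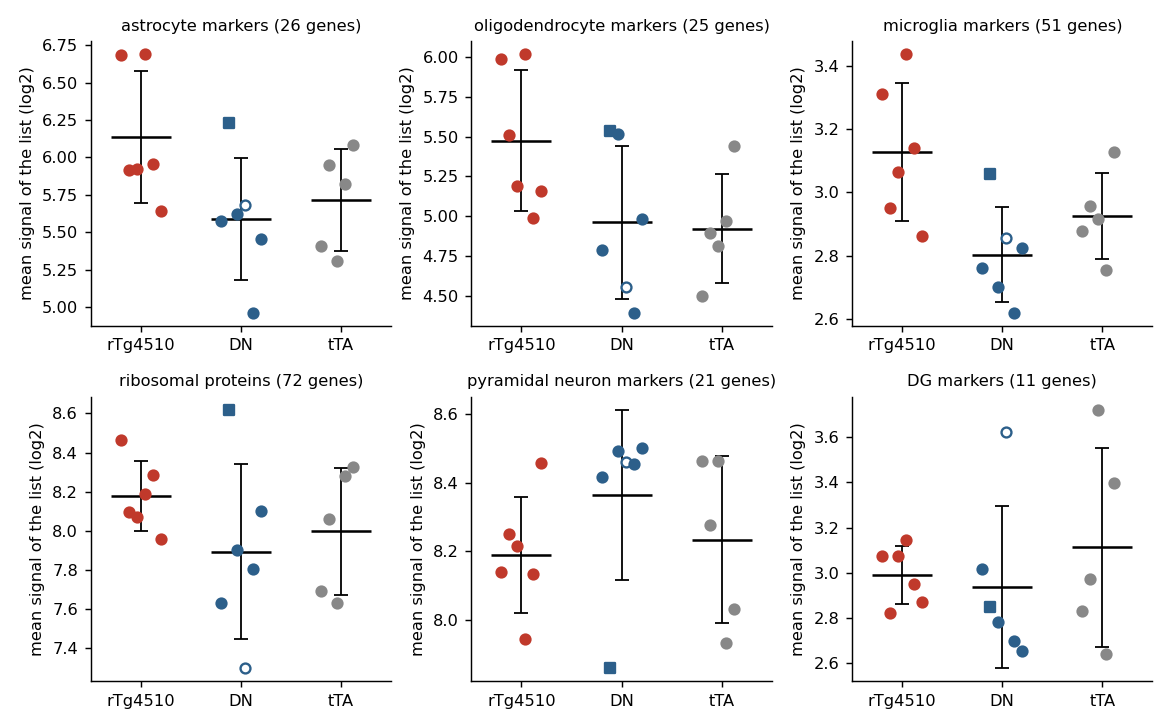
Mean log2 signal of 6 gene lists on each CA3 array by genotype, with 1 point per mouse, the mean as a line, the SD as a bar, DN mouse 4 as an open circle and DN mouse 2 as a square. DN mouse 2 is the highest DN array for astrocyte markers (6.23) and ribosomal proteins (8.62) and the lowest for pyramidal neuron markers (7.86), and DN mouse 4 is the highest DN array for DG markers (3.62).

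Of the neuronal lists 4 lay slightly on the side of lower signal in rTg4510 mice and others did not. Of 21 pyramidal neuron markers 18 were lower, with a median of −0.15, and the lists of synaptic vesicle and release genes (25 of 36 lower, median −0.15), voltage-gated calcium and sodium channels (20 of 23 lower, median −0.16) and microtubule proteins, tau and its kinases (33 of 46 lower, median −0.13) were similar. Interneuron markers had a median of 0.00, postsynaptic density genes 0.03 (12 of 22 higher), glutamate and GABA receptors 0.07 (12 of 22 higher) and immature neuron markers 0.08 (9 of 14 higher). For those 4 lists the counts at an unadjusted p under 0.05 on the lower side were 2 of 21 pyramidal, 3 of 36 synaptic vesicle, 2 of 23 channel and 1 of 46 microtubule genes, against 2.08% of all genes, and 0 genes passed the adjusted threshold in limma. Tbr1, a transcription factor of glutamatergic neurons, had 6.20, 6.61 and 7.23 in rTg4510 mice and 6.61, 7.28 and 7.51 in DN mice, a difference of −0.51 ± 0.20. Syt1, the calcium sensor of vesicle fusion, had 10.40, 10.49 and 10.77 in rTg4510 mice and 10.50, 10.90 and 10.98 in DN mice (−0.32 ± 0.15), and its lowest DN array was DN mouse 2. Pclo, a scaffold of the presynaptic active zone, had 7.06, 8.54 and 8.70 in rTg4510 mice and 8.67, 8.82 and 9.15 in DN mice (−0.56 ± 0.23), and Rims2 of the same zone differed by −1.05 ± 0.44. Leaving out 1 mouse at a time, the pyramidal median ranged from −0.19 to −0.07 (−0.07 without rTg4510 mouse 4 and −0.08 without DN mouse 3), the synaptic vesicle median from −0.20 to −0.11, the channel median from −0.23 to −0.11 and the microtubule median from −0.16 to −0.08.

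Single neuronal genes did not follow their lists in every case. The AMPA receptor subunit Gria3 differed by −0.32 ± 0.14 and the GABA-A receptor subunit Gabrb2 by 0.88 ± 0.44. Of the interneuron markers, Gad1 differed by −0.34, Gad2 by −0.71 and Slc32a1 by 0.42. The BK potassium channel subunit Kcnma1 had 6.29, 7.19 and 7.37 in rTg4510 mice and 7.37, 7.67 and 7.89 in DN mice (−0.60 ± 0.21), while its accessory subunit Kcnmb2 differed by 0.74 ± 0.23. The R-type calcium channel Cacna1e differed by −0.89 ± 0.38. Stmn4, a microtubule-destabilizing protein of neurons, had 9.32, 9.62 and 9.73 in rTg4510 mice and 8.49, 9.12 and 9.56 in DN mice (0.51 ± 0.16), and Map6, which stabilizes microtubules, differed by −1.22 ± 0.49. Mouse Mapt had 4.73, 5.82 and 6.50 in rTg4510 mice and 5.59, 6.39 and 6.70 in DN mice by its brightest probe set, a difference of −0.56 ± 0.29. Other probe sets of Mapt differed by −0.30 ± 0.37 and −0.28 ± 0.52. The immediate early genes had a median of 0.05, with Nr4a2, an activity-induced nuclear receptor, at −1.24 ± 0.45 and the activity-induced kinase Plk2 at −0.64 ± 0.24. Plk2 had 6.70, 7.10 and 7.74 in rTg4510 mice and 7.57, 7.84 and 8.16 in DN mice. Cd2ap, a dementia risk gene with a role in endocytic traffic, had 4.57, 6.45 and 7.16 in rTg4510 mice and 2.38, 3.45 and 6.67 in DN mice (2.03 ± 0.81, and 1.67 without DN mouse 4).

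Ribosomal, oxidative phosphorylation and proteasome genes lay on the higher side with small differences, and glycolysis genes did not (11 of 23 higher, median −0.01). Of 72 cytosolic ribosomal protein genes 68 were higher, with a median of 0.29, of 78 oxidative phosphorylation genes 65 were higher, with a median of 0.19, and of 40 proteasome subunits 34 were higher, with a median of 0.15. At an unadjusted p under 0.05 there were 2 of 72, 2 of 78 and 0 of 40 on the higher side, close to the 2.07% of all genes. DN mice 2 and 4 lay at opposite ends of these lists. The ribosomal list averaged 7.96, 8.14 and 8.46 in rTg4510 mice and 7.30, 7.85 and 8.62 in DN mice, the lowest of all being DN mouse 4 and the highest DN mouse 2. The median of the list was 0.17 without DN mouse 4 and 0.41 without DN mouse 2. For oxidative phosphorylation these values were 0.12 and 0.28. Without DN mouse 2, 22 of the 72 and 20 of the 78 were higher at an unadjusted p under 0.05, against 3.66% of all genes in that fit, and without DN mouse 4 there were 0 of each. DN mouse 4 also had the widest gap between the 3′ and 5′ Gapdh control probe sets, given above, and whether RNA quality contributed was not tested. Rps6, a ribosomal protein that is phosphorylated with mTOR activity, differed by 0.40 ± 0.17, and Ndufv1, a subunit of respiratory complex I, by 0.39 ± 0.16.

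The transgenes of this line are known to have inserted next to or into endogenous genes, Fgf14 for tau and a stretch around Vipr2, Ncapg2 and Ptprn2 for tTA. Fgf14, a modulator of sodium channels, had 6.76, 7.86 and 8.05 in rTg4510 mice and 7.65, 8.21 and 8.58 in DN mice, a difference of −0.49 ± 0.22 (adjusted p = 0.984, limma), and a second probe set differed by −0.15 ± 0.43 (−0.57 without DN mouse 4). Ptprn2 had 2.83, 3.26 and 3.75 in rTg4510 mice and 3.68, 3.96 and 4.35 in DN mice (−0.66 ± 0.34). Vipr2 averaged 1.65 in rTg4510 mice and 1.63 in DN mice and Ncapg2 2.17 in rTg4510 mice and 2.23 in DN mice, both dimmer than the typical probe set. Camk2a, whose promoter drives tTA, averaged 10.44 ± 0.12 in rTg4510 mice and 10.45 ± 0.14 in DN mice (SD, n = 6 each), a difference of −0.02 ± 0.11. Of 10 CA3 markers 7 were lower, with a median of −0.13. Nnat differed by −0.48 ± 0.42, Bok by −0.11 ± 0.24, Prkcd by −0.19 ± 0.41 (−0.57 without DN mouse 4) and Synpr, a vesicle protein of mossy fibers, by 0.37 ± 0.17.

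Whether the rTg4510 minus DN difference in CA3 differed from that in the other layers of the same mice was tested on each mouse's difference between layers. Against CA1, 0 probe sets passed in limma (0%, with 820 at an unadjusted p under 0.05), and against the DG 0 passed (0%, with 1108 at that p). The smallest p against CA1 was that of Ipp, an actin-binding kelch protein, with a difference of 1.50 ± 0.43 in CA3 and −0.79 in CA1, and 2.29 ± 0.37 between them (adjusted p = 0.210). The Ipp groups did not overlap in CA3, with 4.65 to 6.77 in rTg4510 mice and 2.30 to 4.47 in DN mice. The 2.30 belonged to DN mouse 4, and the other DN arrays started at 4.05. With 1 mouse left out at a time, the CA3 difference of Ipp ranged from 1.18 to 1.66. Against the DG the smallest p was that of Nfkbie, with −1.70 ± 0.32 in CA3 and 0.10 ± 0.20 in the DG. The difference between the layers was −1.80 ± 0.34 (adjusted p = 0.957), and without DN mouse 4 it was −2.08 ± 0.28 (adjusted p = 0.0327), the 1 probe set to pass in that fit (0.00442%). The next were Arpp21, a cAMP-regulated phosphoprotein, at 1.29 ± 0.54 in CA3 and −1.78 in the DG, and Krt77, Nebl and Itga9, each with an adjusted p of 0.957. Medians of the astrocyte list were similar in the 3 layers (0.56 in CA3, 0.51 in CA1 and 0.54 in the DG). Those of the oligodendrocyte list were 0.51 in CA3, 0.97 in CA1 and 0.31 in the DG, and differences between layers were not tested for lists.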

How the data were processed

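RNA from laser-captured layers was amplified (Ovation Pico WTA), biotin-labelled (Encore) and hybridized to Affymetrix HT-MG-430A arrays. The authors deposited RMA values, which are on the log2 scale although the methods call them anti-log; the RMA version is not given in the sources used here. Of 22716 probe sets, 90 controls were left out and 22626 tested, 18003 of them with 1 gene symbol in the platform's table, 287 with several and 4336 with none, of which 320 (Prnp among them) took their names from supplementary tables of the study.

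The 17 CA3 arrays were fitted with limma 3.58.1 in R 4.3.3 over 3 genotypes (contrast rTg4510 minus DN, two-sided, Benjamini-Hochberg, threshold 0.05). The number of mice limits the precision. Differences between layers used each mouse's difference. Errors are SE unless named. Lists use the brightest probe set of a gene. Fits were tested on simulated data. Named are Prnp, insertion-site genes, the 20 smallest p, calls without DN mouse 4, up to 4 genes of smallest p in each list described, the 5 of smallest p in each layer test, and the subfield, cell type and sex markers. The members and lists were chosen with earlier results of these data known. Python 3.11.15 and matplotlib 3.10.9 served for the figures.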

Additional observations from a re-analysis of the deposited data

Results flagged for a closer look

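Within the 6 mice of a group, 27 of the 320 sets of values examined (in CA3) had 1 array farther from the others than Dixon's critical value of 0.625 allows, where chance gives about 1 in 20. DN mouse 2 accounted for 10 of these, DN mouse 4 for 5, and no other mouse for more than 3. The sets share arrays and in part genes, and some probe sets were picked for a small p. The rate of 1 in 20 cannot be applied to such sets, so that these counts are a description.

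DN mouse 2 stood apart with low mean signals of the lists of pyramidal neuron markers (7.86), synaptic vesicle genes (7.04), calcium and sodium channels (4.59) and microtubule genes (7.65). The same mouse was low for Syt1 (10.50), Mapt (5.59) and Pecam1 (1.36) and high for Clu (9.32), C1qa (4.003) and Slco1a4, an endothelial transporter (5.60).

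DN mouse 4 stood apart with a high signal of the brighter Prnp probe set (10.29), Gria3 (9.32) and the DG marker Calb1 (3.40), and with low Prkcd (4.67) and Ipp (2.30). DN mouse 5 was low for Xist (4.06) and for the mean of the sex-linked genes (2.31), DN mouse 1 was high for Nrp1 (8.11), and DN mouse 6 was high for Itga9 (2.44).

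Among rTg4510 mice, mouse 3 was low for Fgf14 (6.76) and high for Psmd14, a proteasome subunit (9.71), and for Prkcd (7.40). Mouse 4 was low for Pclo (7.06) and Camk2b (7.34), mouse 6 for C1qb (3.91) and mouse 2 for Arpp21 (4.20), and mouse 1 was high for Aldh1l1 (4.62).

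The rTg4510 minus DN difference of Nfkbie differed between CA3 and the DG by −2.08 ± 0.28 without DN mouse 4, by limma's test of that difference (adjusted p = 0.0327, 6 rTg4510 and 5 DN mice).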

How the results depend on the processing

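The count of 0 probe sets called with all 12 arrays remained 0 under Fisher's LSD on log2 or linear signals, an intensity trend, the filter at the 40th percentile of signal, median centring, quantile normalization and 1 probe set per gene (over all alternatives, 493 to 1529 had an unadjusted p under 0.05). It was 5 with array weights (Prnp by both probe sets, Car4, Nacc1 and Nfkbie), 1 in a fit of only the rTg4510 and DN arrays (Nipbl), 1 when the CA1 and DG arrays joined the fit, 51 in all, and the mouse was a random block (Nfkbie) and 1 without DN mice 4 and 5 (Prnp). Leaving out 1 mouse at a time it ranged from 0 to 4, the 4 without DN mouse 4. The count of 4 without DN mouse 4 was 1 with only the rTg4510 and DN arrays (the dimmer Prnp probe set), and from 1 (without DN mouse 5) to 5 (without rTg4510 mouse 2) when 1 more mouse was left out, with 2 without DN mouse 6. The cause was not tested. The count for CA3 minus DG was 1 without DN mice 4 and 5 and ranged from 0 to 1 when 1 mouse was left out, and that for CA3 minus CA1 was 0 throughout.

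The difference of the dimmer Prnp probe set passed with array weights (1.50) and without DN mice 4 and 5 (1.72), and ranged from 1.27 to 1.62 when 1 mouse was left out. Because the Prnp signal singled out DN mouse 4, every Prnp call made without that mouse is a description. Of 121 named probe sets, 106 kept their sign in all 23 alternatives that held them. None of the 15 others was called in any. Vipr2 was −0.00184 on linear signals, −0.00475 after centring and −0.0393 to 0.107 when 1 mouse was left out. Tdo2 was 0.0469 on linear signals, 0.0913 with array weights and −0.222 to 0.102 with 1 mouse left out. With array weights Pou3f1 was −0.13, Flt1 −0.00881 and the probe set with no gene symbol 0.14. Without DN mice 4 and 5 these values were Pou3f1 −0.0411, the probe set with no symbol 0.0836, Aldh1l1 −0.22, Ttr 0.0503, Xist −0.0263 and Uty −0.0113. With 1 mouse left out the ranges were −0.0544 to 0.0205 for Camk2a, −0.125 to 0.0220 for Ncapg2, −0.638 to 0.0091 for Itgbl1, −0.169 to 0.0689 for the probe set with no symbol, −0.212 to 0.0719 for Bok, −0.0409 to 0.221 for Pou3f1, −0.533 to 0.000733 for Bcl6, −0.947 to 0.0207 for Dsp, −0.24 to 0.52 for Aldh1l1, −0.0767 to 0.232 for Flt1, −0.578 to 0.0294 for Ttr and −0.15 to 0.89 for Xist. Over the same 23 alternatives, 14 of 874 list medians moved by more than the SD of the list's mean signal among DN arrays. Among those that moved, the median reached 0.48 for microglia, 0.44 for complement and 0.19 for cytokine and gliosis genes. No paired analysis was possible because the rTg4510 and DN arrays come from different mice and their labels share no replicate numbers.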
